A study of Mus musculus with 11 samples.

Results

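The genes described here are 43 mouse genes of the NF-kB, cytokine and interferon responses. They were taken as listed by name: 5 NF-kB subunits, 5 NF-kB inhibitors, 6 cytokines, 8 chemokines, 3 other genes induced by inflammation, 3 STAT factors, 3 SOCS inhibitors, 6 interferon regulatory factors (IRFs) and 4 interferon-induced genes. All 43 were found by symbol among 21887 protein-coding genes, which leaves 21844 others for comparison. The readout was the list of ChIP-seq peaks deposited for each of 11 libraries from glands of the mouse stomach. Of these, 8 profile H3K27ac, the acetyl mark on lysine 27 of histone H3 that is found at active promoters and enhancers, and 3 are labelled as trimethylated lysine 4 (H3K4me3), a mark of promoters. The libraries came from wild-type mice, from Atp4bCre; Rosa26NICD mice (called NICD), from NICD mice with 1 floxed Arid1a allele (1-allele) and from NICD mice with 2 floxed Arid1a alleles (2-allele). Every group but the wild type therefore carried both the Cre and the NICD allele. Atp4b encodes a subunit of the acid pump of parietal cells, and its promoter drives the Cre; NICD is the active intracellular part of Notch, expressed from the Rosa26 locus; Arid1a encodes a subunit of the SWI/SNF chromatin remodelling complex. There were 2 libraries per group for H3K27ac and 1 per group for H3K4me3. The floxed H3K4me3 library is labelled with 1 floxed allele in its title and with both alleles in its genotype, so it was kept apart with its allele number open. Ages were not given in the sources used here, and pellets were pooled before immunoprecipitation, so replicate libraries may share animals, and their spread may be technical.

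NF-kB dimers are held in the cytoplasm by inhibitor proteins of the IkB family. Signals from Tnf, interleukin 1 or microbial products destroy the inhibitors, and the freed dimers bind kappa-B sites at cytokine, chemokine and inhibitor genes, so that the pathway induces its own brakes. Interferons act through JAK kinases, STAT factors and Irf9, which bind the interferon-stimulated response element (ISRE), while SOCS proteins switch cytokine receptors off. In the stomach these responses are known from gastritis and from infection.

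The stretches upstream of 6 of the genes are shown because they hold letters that match the sites by which the pathways are known, and because the 6 genes cover the main patterns seen in the peaks. Nfkbia (the inhibitor IkB alpha) and Cxcl1 (a neutrophil chemokine) had H3K27ac in each of the 8 libraries profiled for it, Cxcl2 (the chemokine gene next to Cxcl1), Il6 (interleukin 6) and Cxcl10 (an interferon-induced chemokine) had H3K4me3 at or near the start in the NICD library without an H3K27ac end peak, and Ifit3 (an interferon-induced antiviral gene) had H3K27ac at its start in the NICD libraries alone. Each is the 250 bases before the RefSeq start, read along the gene's own strand, with capitals where the letters match the kappa-B consensus or the ISRE on either strand. They lie in GRCm38 (mm10) at chr12:55492648-55492897 (minus strand) for Nfkbia, chr5:90890995-90891244 (plus) for Cxcl1, chr5:90903649-90903898 (plus) for Cxcl2, chr5:30012864-30013113 (plus) for Il6, chr5:92348890-92349139 (minus) for Cxcl10 and chr19:34583279-34583528 (plus) for Ifit3.
Nfkbia: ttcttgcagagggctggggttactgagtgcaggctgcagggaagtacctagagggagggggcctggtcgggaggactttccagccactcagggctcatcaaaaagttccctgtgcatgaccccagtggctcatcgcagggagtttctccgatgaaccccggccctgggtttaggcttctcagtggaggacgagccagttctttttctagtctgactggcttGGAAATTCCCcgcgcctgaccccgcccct
Cxcl1: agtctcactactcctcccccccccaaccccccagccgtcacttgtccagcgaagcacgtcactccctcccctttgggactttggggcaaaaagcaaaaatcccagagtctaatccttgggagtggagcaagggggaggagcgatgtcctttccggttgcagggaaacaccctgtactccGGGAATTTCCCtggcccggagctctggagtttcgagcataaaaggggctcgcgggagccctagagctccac
Cxcl2: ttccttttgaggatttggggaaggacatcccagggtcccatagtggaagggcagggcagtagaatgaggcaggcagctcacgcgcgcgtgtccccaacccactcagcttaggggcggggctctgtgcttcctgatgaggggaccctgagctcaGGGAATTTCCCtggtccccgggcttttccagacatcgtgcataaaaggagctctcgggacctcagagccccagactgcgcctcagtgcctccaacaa
Il6: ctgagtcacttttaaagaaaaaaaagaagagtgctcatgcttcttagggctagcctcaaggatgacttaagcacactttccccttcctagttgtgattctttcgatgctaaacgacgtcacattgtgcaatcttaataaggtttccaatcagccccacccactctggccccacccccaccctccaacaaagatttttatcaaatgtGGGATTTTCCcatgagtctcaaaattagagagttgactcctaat
Cxcl10: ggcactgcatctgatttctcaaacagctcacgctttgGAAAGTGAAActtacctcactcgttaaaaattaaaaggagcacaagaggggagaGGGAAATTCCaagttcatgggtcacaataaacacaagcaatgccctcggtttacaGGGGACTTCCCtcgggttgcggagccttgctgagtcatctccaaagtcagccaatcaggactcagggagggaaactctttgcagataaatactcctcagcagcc
Ifit3: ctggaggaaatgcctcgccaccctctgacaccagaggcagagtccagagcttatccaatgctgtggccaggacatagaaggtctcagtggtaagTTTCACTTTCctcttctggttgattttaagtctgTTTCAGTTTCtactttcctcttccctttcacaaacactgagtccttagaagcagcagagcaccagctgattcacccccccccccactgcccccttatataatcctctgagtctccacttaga

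Motifs were searched on both strands of the window from 250 bases before to 50 bases after each RefSeq start, for the 36 of 43 genes that matched the table of starts and for 17456 other genes. The kappa-B consensus, a narrower form of GGG and CC with any 5 bases between them, was present for 14 of the 36 genes (38.9%) and for 10.5% of the others, and the looser form for 28 (77.8%) and 59.8%. In the promoters shown, the kappa-B matches of Cxcl1 and Cxcl2 have the same letters, Cxcl10 holds a pair of separate kappa-B matches and an ISRE, and Ifit3 holds a pair of ISRE matches on the opposite strand. The ISRE, a pair of GAAA with any 2 bases between, was present for 7 genes (19.4%), namely Cxcl10, Ifit1, Ifit3, Irf2, Isg15, Socs1 and Stat2, against 3.91% of the others. The STAT motif GAS, TTCNNNGAA, was present for 7 genes (19.4%) and for 8.9% of the others. Matches of the looser form include those of the consensus, and a match describes letters and not binding.

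The 9 lists with a header were made from 7955591 to 20809769 tags, and the H3K27ac lists held 5165 and 7602 peaks in the 1-allele libraries, 14373 and 15362 in the 2-allele, 18360 and 20590 in the wild-type and 25442 and 41405 in the NICD libraries. Longer lists reach more genes, so counts below are read against the other genes of the same library where these were counted. The tag number did not order the lists, since NICD replicate 2 had the fewest tags. These are the tags left after filtering, and the header of that library gives a redundant rate of 52%. Both 2-allele lists hold positions alone. Their order was used as the order of strength, since the first 1000 regions averaged 733 and 696 bp and the last 1000 averaged 269 and 289 bp, as in the ranked lists of the other groups. Of 15 gastric epithelial markers, 10 had a peak at a gene end in each wild-type library, and 11 and 7 in the NICD libraries. The numbers were 5 and 2 in 1-allele and 7 and 5 in 2-allele libraries. With H3K27ac, Atp4b was called in both wild-type libraries, in neither NICD library and in 1-allele replicate 1. With H3K4me3 it was called in the NICD and the floxed library and not in wild type. Atp4a, another marker of the list, was called in no library. Of 20 leukocyte markers, 1 and 0 had one in wild type, 4 and 2 in NICD, 0 and 0 in 1-allele and 2 and 1 in 2-allele libraries; Ptprc was called in both NICD libraries, and Cd3e, Csf1r and Adgre1 in none of the 8. Fibroblast and muscle markers were called for at most 2 of 10, and no endothelial marker of 8 was called with H3K27ac. In bulk glands, a change in the share of cells and a change in the mark per cell cannot be told apart, and the part of leukocyte markers in the results below was not tested.

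H3K27ac lay at the ends of about as many of the genes in wild-type as in 2-allele glands, of more in NICD and of fewer in 1-allele glands. A peak within 1 kb of either end of the gene (an end peak) was called for 23 and 24 of the 43 genes in wild type (53.5% and 55.8%), where 43.1% and 40.9% of the other genes had one. The NICD libraries had end peaks at 29 and 27 genes, against 53% and 47.2% of others. In 1-allele glands the numbers were 12 and 13, against 16.1% and 25.8%, and in 2-allele glands 24 and 20, against 42.5% and 41.2%. By group the means were 23.5 ± 0.7, 28.0 ± 1.4, 12.5 ± 0.7 and 22.0 ± 2.8 genes (SD, n = 2 each). The order of the groups was the same among the other genes, and in all 8 libraries the share of the 43 genes stood above that of the others.

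Peaks elsewhere in the gene body or within 20 kb of it (other peaks) followed the same order with wider steps. They were called for 24 and 23 genes in wild type (others 46.3% and 43.9%), 38 and 30 in NICD (60.9% and 51.3%), 4 and 11 in 1-allele (17% and 24.2%) and 23 and 18 in 2-allele glands (41% and 39%). The first 1-allele library is the exception to the rule that the 43 genes stood above the rest: 9.3% of them had an other peak there, below the 17% of other genes. The NICD replicates also differed by 8 genes, and the library with more genes had the longer list.

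**Figure D1:**
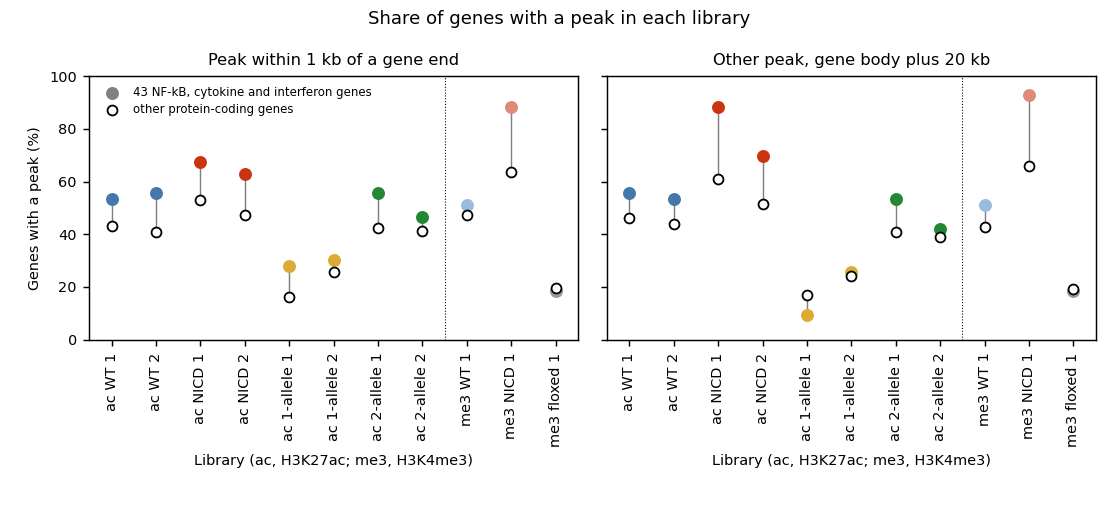
Share of genes (%) with a peak in each of the 11 libraries, for peaks within 1 kb of a gene end (left) and other peaks in the gene body plus 20 kb (right); filled points are the 43 genes and open points the 21844 others, coloured by group. The filled points lie above the open ones in all 8 H3K27ac libraries for end peaks, and below in the first 1-allele library for other peaks.

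End peaks were called in all 8 H3K27ac libraries for 10 genes (23.3%, against 13.3% of other genes): the subunits Nfkb1 and Rela, the inhibitors Nfkbia, Nfkbiz and Tnfaip3, the chemokines Cxcl1 and Cxcl16, and Stat3, Socs1 and Irf1. At the other extreme, 12 genes (27.9%, against 45.5% of others) had no H3K27ac end peak in any library, among them 5 of the 6 cytokines. Of those 12, Cxcl2 had other H3K27ac peaks in all 8 libraries, Nfkb2 in 7 and Isg15 in 6. The remaining 21 genes had end peaks in some libraries and not in others. Il1b, a secreted trigger of fever and gastritis, and Ccl2, a monocyte chemokine, had no peak of either kind in any of the 11 libraries.

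**Figure D2:**
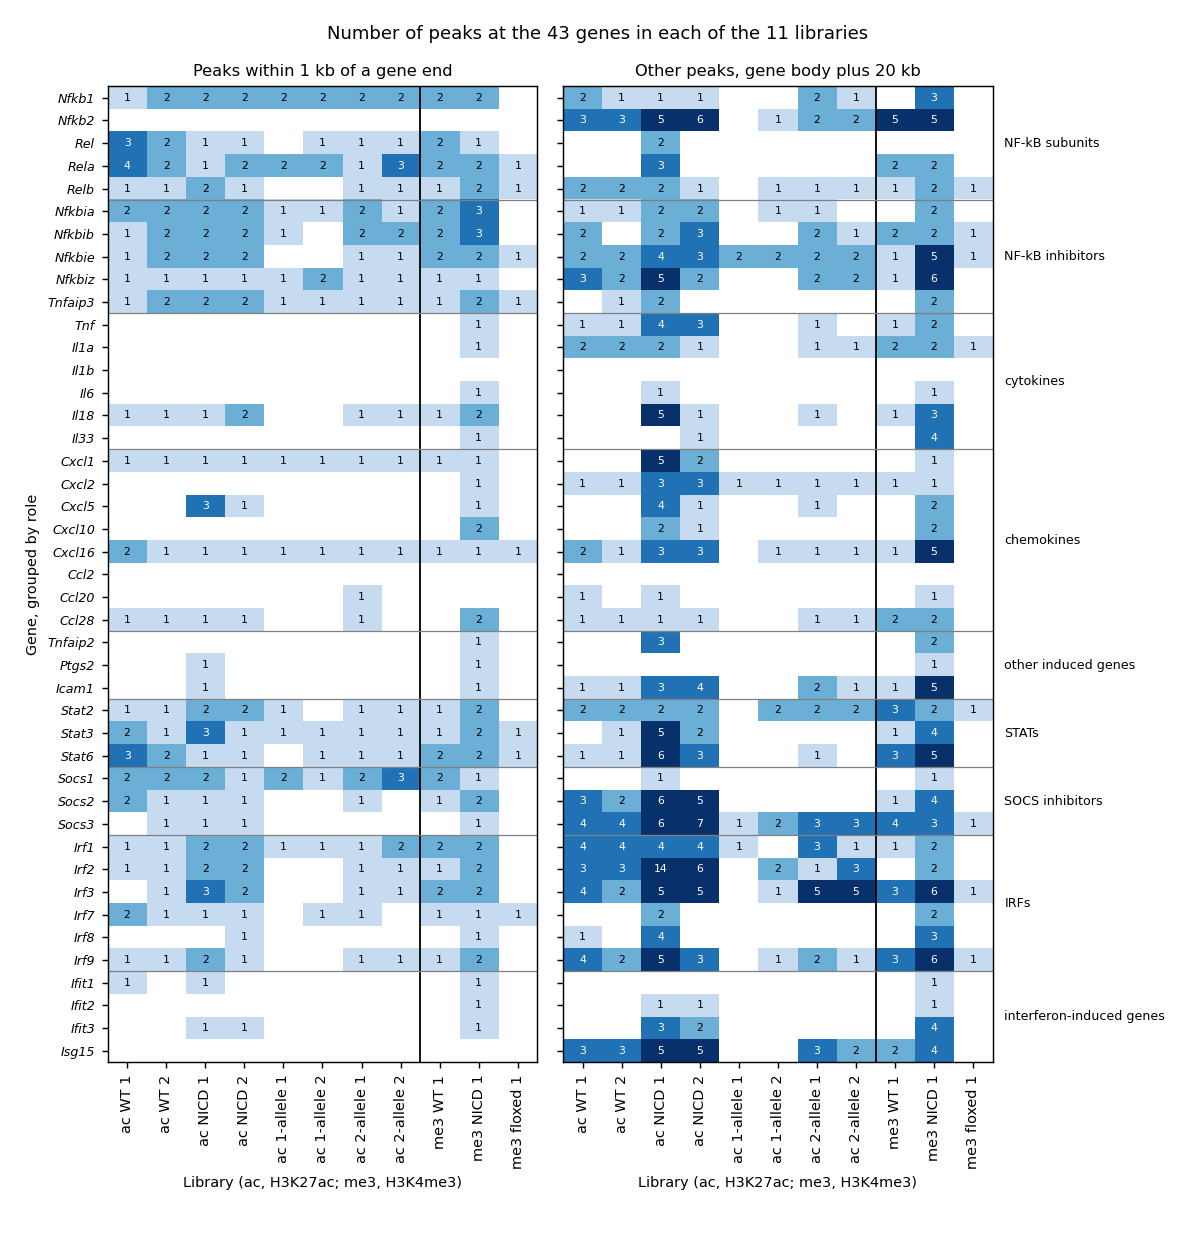
Number of peaks called at each of the 43 genes (rows, grouped by role) in each of the 11 libraries (columns), at gene ends (left) and elsewhere within 20 kb (right); the cells give the number, empty cells are 0, and the vertical line separates H3K27ac from H3K4me3. Rows filled across the first 8 columns are the 10 genes with an end peak in every H3K27ac library, and among the H3K27ac columns those of the NICD libraries are the fullest.

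Among the subunits, Nfkb1 (p105, the precursor of p50) had an end peak in all 8 H3K27ac libraries. The authors' fold enrichment over the local background of the same library was 8.87 and 7.94 in wild type, 9.40 and 8.40 in NICD and 7.03 and 5.49 in 1-allele glands; the 2-allele lists give no fold. It was among the stronger peaks everywhere, ranking above at least 86.6% of the list in all 8 libraries. Rela (p65, the main activating subunit) had folds of 8.79 and 6.25 in wild type, 7.87 and 8.43 in NICD, and 5.05 and 5.64 in 1-allele glands. For both genes the 1-allele folds lay below those of wild type and NICD. A fold also depends on the depth and background of its library, and this was not tested. The share of other genes whose folds are ordered in such a way was not counted, for these genes or those below. Rel (c-Rel) was called everywhere except 1-allele replicate 1. Relb, a subunit of the non-canonical arm, was called in all 6 libraries of the wild-type, NICD and 2-allele groups and in no 1-allele library, with folds of 6.13 and 6.46 in wild type and 11.1 and 7.45 in NICD. Nfkb2 (p100, which pairs with Relb) had no end peak in any library and its H3K27ac lay inside the annotated gene: a region at chr19:46304709-46306122 was called in all H3K27ac libraries except 1-allele replicate 1. The RefSeq table has starts of Nfkb2 within that region, and the windows of these starts hold kappa-B consensus matches.

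All 5 inhibitors had end peaks in every wild-type, NICD and 2-allele library, and 4 and 3 of them in the 1-allele libraries. Nfkbia had a region at chr12:55492109-55492649 called in all 8, which ends at its start, just downstream of the kappa-B match printed above. Its fold was 8.15 and 5.76 in wild type, 9.13 and 6.19 in NICD and 4.34 and 6.94 in 1-allele glands, so the groups overlapped. Tnfaip3 (A20, an enzyme that edits ubiquitin chains and stops NF-kB signalling) had folds of 8.02 and 7.26 in wild type, 9.60 and 7.26 in NICD, and 5.80 and 5.23 in 1-allele glands. Nfkbiz (IkB zeta, a nuclear cofactor) had 8.19 and 6.83, then 12.7 and 8.92, then 5.03 and 5.00, with NICD highest and 1-allele lowest. Its end region is shared with Nxpe3. Nfkbib (IkB beta) was called in 1-allele replicate 1 and not in replicate 2. Nfkbie (IkB epsilon) was called in no 1-allele library, but its end peaks in wild-type replicate 1 and in both 2-allele libraries lay at the far end, within 1 kb of Slc35b2. The folds of its strongest end peak, at either end, were 5.70 and 6.90 in wild type and 10.4 and 8.56 in NICD glands. The 5.70 belongs to the far end, so these values do not compare a single region. The start region of Nfkbie itself, chr17:45555728-45556189, was called in wild-type replicate 2 and both NICD libraries alone.

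Of the cytokines, Il18, an interleukin made by epithelia, was the 1 gene with an H3K27ac end peak. It was called in both libraries of the wild-type, NICD and 2-allele groups and in neither 1-allele library, with folds of 6.98 and 3.64 in wild type and 9.38 and 7.95 in NICD. The peak of wild-type replicate 2 was near the threshold of calling and ranked above 3.3% of its list. The region, chr9:50554659-50555652, is also within 1 kb of an end of Bco2. Inside Il18, a region at chr9:50570073-50570371 was called in both NICD libraries and 2-allele replicate 1, and in no wild-type or 1-allele library. Tnf and Il1a (interleukin 1 alpha) had other peaks in both wild-type and both NICD libraries and in no 1-allele library, but those of Il1a lay at the end of Ckap2l. Around Tnf, a region 8922 bp away (chr17:35210929-35211588) was called in both wild-type and both NICD libraries. Il6 and Il33 (an alarmin of barrier tissues) each had 1 other peak in 1 NICD library and no other H3K27ac peak.

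Among the chemokines, Cxcl1 had an end peak in all 8 libraries and further peaks beside it in NICD glands. The region chr5:90890856-90891793 spans its start, with folds of 8.41 and 8.22 in wild type, 12.1 and 9.68 in NICD and 4.66 and 4.60 in 1-allele glands. In the 1-allele libraries it ranked above 11.9% and 19.7% of their own lists, among the weaker peaks there. Between Cxcl1 and Cxcl2, regions at chr5:90899636-90900141 and chr5:90900396-90900685 were called in both NICD libraries and in none of the other 6. No H3K27ac peak touched the end of Cxcl2 in any library: the nearest lay 12455 and 12455 bp from its start in wild type, 3254 and 3214 bp in NICD, 12559 and 12390 bp in 1-allele and 12243 and 12263 bp in 2-allele glands. The distant values are the start region of Cxcl1.

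Cxcl5, another neutrophil chemokine of the same cluster, had end peaks in the NICD libraries alone, 3 in replicate 1 and 1 in replicate 2. The region called in both, chr5:90759101-90759441, is 341 bp wide, and the strongest folds were 4.37 and 4.81. These ranked above 39.2% and 30.7% of their lists, so they were weaker than most NICD peaks. Cxcl10 had no end peak, and a region 4652 bp before its start, chr5:92353541-92354014, was called in both NICD libraries and in no other, at folds of 5.13 and 5.61. Cxcl16, a membrane-bound chemokine of epithelia, was called in all 8, in a region shared with Zmynd15, at folds of 5.62 and 6.49 in wild type, 9.01 and 7.46 in NICD and 5.26 and 4.37 in 1-allele glands. The NICD folds were the highest and the 1-allele folds the lowest, and the share of other genes with this order was not counted. Ccl28, a mucosal chemokine, was called in both wild-type and both NICD libraries, in 2-allele replicate 1 and in neither 1-allele library. Its folds of 4.00 and 4.06 in wild type lay below the 7.42 and 6.40 of NICD. Ccl20, which draws cells bearing Ccr6, had a weak end peak in 2-allele replicate 1 alone. Of the other induced genes, Ptgs2 (cyclooxygenase 2) and Icam1 (an adhesion molecule) each had an end peak in NICD replicate 1 alone, at folds of 3.97 and 3.51, and Tnfaip2 had none. These ranked above 2.2% and 1.0% of that list, near the threshold of calling. Other peaks near Icam1 were called in both libraries of every group except the 1-allele group, with folds of 5.43 and 3.93 in wild type and 9.78 and 5.74 in NICD.

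**Figure D3:**
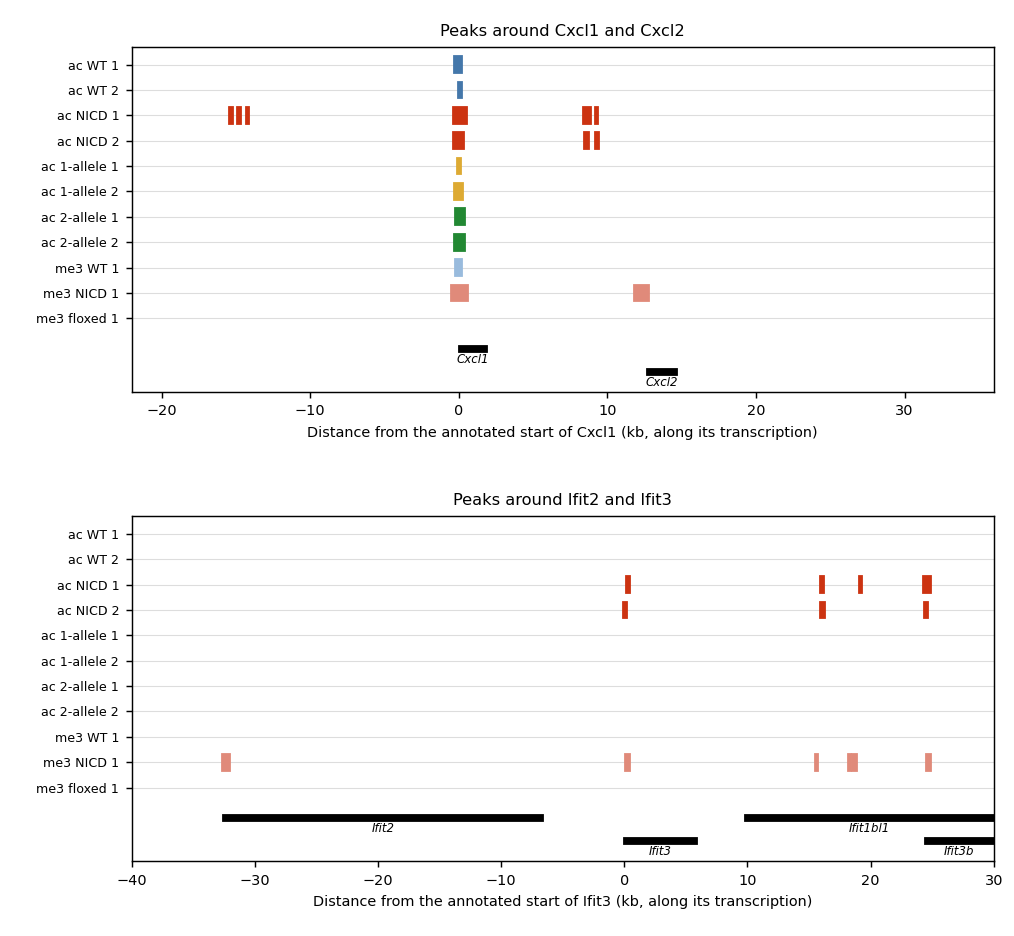
Peaks (coloured bars) of each of the 11 libraries around Cxcl1 and Cxcl2 (top) and around Ifit2 and Ifit3 (bottom), plotted as distance in kb from the annotated start of Cxcl1 or Ifit3 along its transcription; black bars are genes. The Cxcl1 start is marked in all 8 H3K27ac libraries and the stretch between the chemokine genes in the NICD libraries alone, as are all H3K27ac peaks around Ifit3.

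The STAT factors, which carry cytokine signals to the nucleus, were marked nearly throughout. Stat3, which acts below Il6, had an end peak in all 8 libraries, at folds of 9.13 and 10.7 in wild type, 11.5 and 10.1 in NICD and 4.48 and 5.87 in 1-allele glands. The 1-allele folds lay below all 4 others. Stat2, the interferon partner of Irf9, was called in all but 1-allele replicate 2, and Stat6, which acts below interleukin 4, in all but 1-allele replicate 1. Socs1, which blocks JAK kinases, was called in all 8, at folds of 6.66 and 4.68 in wild type, 7.30 and 7.26 in NICD and 4.82 and 4.47 in 1-allele glands. Socs2, an inhibitor of growth hormone signalling, was called in wild type and NICD, in 2-allele replicate 1 and in neither 1-allele library. Its folds were 4.64 and 5.78 in wild type and 6.23 and 4.83 in NICD, so these groups overlapped. Other peaks of Socs2 were called in all 4 of those libraries and in none with a floxed Arid1a allele.

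Socs3, the feedback inhibitor of the Il6 and Stat3 pathway, depended on where its start was placed. Counted at the ends of the annotated gene, it was called in wild-type replicate 2 and both NICD libraries and in none of the 1-allele or 2-allele libraries, at folds of 3.15, 3.77 and 3.19. Counted at its RefSeq start, which lies inside that gene, it was called in both libraries of the wild-type, NICD and 2-allele groups and in neither 1-allele library. The region there, chr11:117968197-117969179, was the widest of its surroundings at 983 bp. Downstream of Socs3, 16042 bp away, chr11:117949397-117950037 was called in all 8 libraries. It was the only 1 of 105 regions around the 43 genes and away from gene ends to be so (0.952%). Around other genes, 539 of 22970 such regions were called in all 8 (2.35%).

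**Figure D4:**
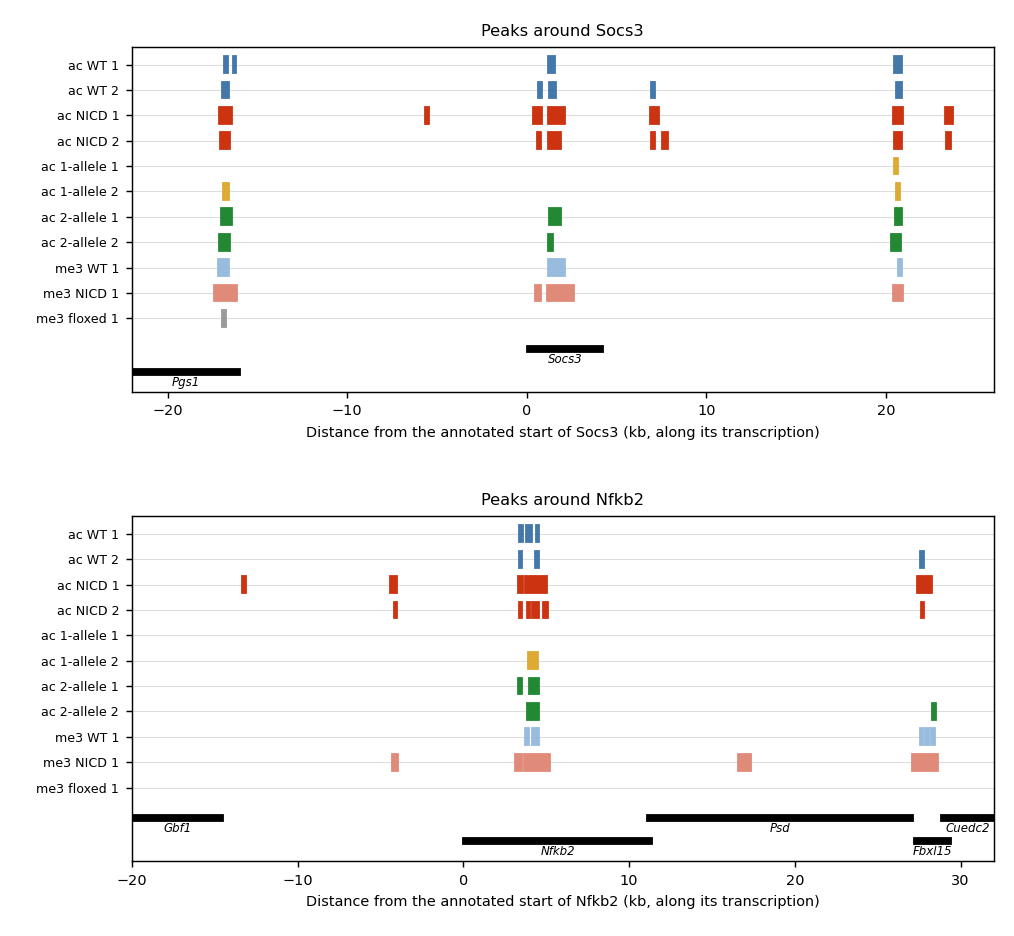
Peaks (coloured bars) of each of the 11 libraries around Socs3 (top) and Nfkb2 (bottom), plotted as distance in kb from the annotated start of the gene along its transcription; black bars are genes. Both genes carry peaks inside the annotated gene in all wild-type, NICD and 2-allele H3K27ac libraries, and the distal region of Socs3 at about 20 kb is marked in all 8.

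Among the IRFs, Irf1, which is induced by interferon gamma and NF-kB, was called in all 8 libraries, at folds of 6.24 and 4.95 in wild type, 8.35 and 6.36 in NICD, and 5.11 and 4.41 in 1-allele glands. Irf2 (its antagonist), Irf3 (activated when viral nucleic acid is sensed) and Irf9 were called in each NICD and each 2-allele library but in no 1-allele library. Irf2 ranked above 88.0% and 88.2% of the wild-type lists, 87.9% and 80.6% of the NICD lists and 77.2% and 75.5% of the 2-allele lists, among the stronger peaks of those lists. In 1-allele replicate 2 a peak lay just beyond the 1 kb window of Irf2. Irf3 was called in wild-type replicate 2 at a fold of 4.99 and in NICD at 5.59 and 5.11, and Irf9 in wild type at 5.37 and 6.63 and in NICD at 7.86 and 6.55. Irf3 shares its end region with Bcl2l12 and Irf9 with Rnf31. Irf7, the amplifier of type I interferon, was called in 1 of 2 libraries of each Arid1a-floxed group and in both of the others. Irf8, a factor of myeloid cells and of interferon gamma responses, had an end peak in NICD replicate 2 alone; counted at RefSeq starts it was called in both NICD libraries and in none of the other 6.

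Of the interferon-induced genes, Ifit3 had H3K27ac in the NICD group alone. Its start region, chr19:34583040-34583567, was called at folds of 6.09 and 3.88 with summit pileups of 16 and 7 reads, and the second ranked above 0.9% of its list, near the threshold of calling. A further region 10005 bp beyond the gene, chr19:34598987-34599439, and another at the end of Ifit3b, chr19:34607366-34608026, were also called in both NICD libraries and in none of the other 6. Ifit3 and Ifit3b are near copies, and the sources used here do not give the treatment of reads that map to several places. Ifit1 was called in wild-type replicate 1 and NICD replicate 1, at folds of 5.59 and 5.13, in a region shared with Ifit1bl2. Ifit2 had no end peak, and its other peak was the start region of Ifit3. Isg15, a ubiquitin-like protein, had no end peak in any library, and other peaks in both libraries of every group except the 1-allele group. The peaks called most often near Isg15 lay at ends of Agrn and Perm1.

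The 10 genes called throughout held different places in the lists. In wild-type replicate 1 their strongest end peaks ranked from above 70.4% (Cxcl16) to above 98.9% (Nfkb1) of the list, and in NICD replicate 1 from 88.9% (Irf1) to 99.5% (Stat3). In 1-allele replicate 1, Nfkb1 ranked above 93.3%, while Nfkbiz, Stat3 and Cxcl1 ranked above 30.2%, 20.1% and 11.9%. Over all genes with an end peak, the median rank of the 43 genes was above that of the others in every H3K27ac library. It went from 56.2% against 55.1% in 1-allele replicate 2 to 83.1% against 69.1% in wild-type replicate 2. Other peaks did not show this. Their median rank was above that of the others only in wild-type replicate 2 (64.8% against 64.6%) and 1-allele replicate 2 (54.1% against 52.2%). In NICD it was 68.0% against 77.8% and 59.3% against 70.8%. The lists differ in length, so ranks were read inside a library and not between libraries.

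**Figure D5:**
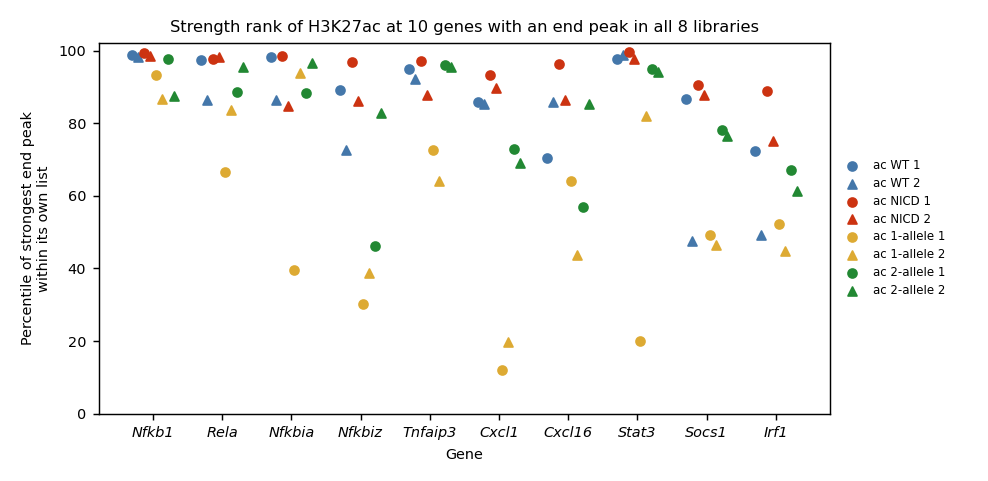
Rank of the strongest end peak of each of the 10 genes called in all 8 H3K27ac libraries, as the percentage of peaks of its own list that are weaker (0 to 100), with 1 point per library coloured by group and shaped by replicate. Nfkb1 lies at or above 86.6 in every library, and in the 1-allele libraries Cxcl1 lies at 11.9 and 19.7.

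The first comparison, NICD against wild type, concerns the effect of Notch activation with the Cre. An end peak in both NICD libraries and in neither wild-type library was called for 2 of the 43 genes, Cxcl5 and Ifit3, beside a background of 3.83% of the other genes, and the reverse for 0 genes beside 0.114%. Other peaks separated the groups in this direction for 6 genes, Il18, Cxcl1, Cxcl5, Cxcl10, Ifit2 and Ifit3, beside 5.53%, and in the reverse direction for 0 beside 0.233%. With every list cut to its strongest 18360 peaks, the length of the shortest of these lists, the end count was 0 and the count of other peaks was 1 (Ifit3); at 5165 peaks both were 0, and Nfkbib had an end peak in both wild-type libraries and no NICD library. Without NICD replicate 2 the end count was 4 and the count of other peaks 12, and without wild-type replicate 2 the end count was 4. The share of other genes that separated the groups was not counted for these settings. The same holds for the altered settings of the comparisons below. The Cxcl5 peaks ranked above 39.2% and 30.7% of their lists and the Ifit3 peaks above 50.0% and 0.9%. The leukocyte marker Ptprc was called in the same libraries, and its part in the result was not tested. With 2 libraries against 2, the smallest exact permutation p is 0.333, so that test could call no gene between a pair of groups, and no other pairwise test was run.

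The second comparison, 1-allele against NICD, asks what follows the floxing of 1 Arid1a allele. End peaks were called in both NICD libraries and in neither 1-allele library for 11 genes: Relb, Nfkbie, Il18, Cxcl5, Ccl28, Socs2, Socs3, Irf2, Irf3, Irf9 and Ifit3. The background was 18.8% of other genes, and the reverse pattern held for 0 genes beside 0.00916%. For other peaks the counts were 17 genes beside 23.2%, and 0 beside 0.0366%. Those 17 were Nfkb1, Nfkbib, Nfkbiz, Tnf, Il1a, Il18, Cxcl1, Cxcl5, Cxcl10, Ccl28, Icam1, Stat3, Stat6, Socs2, Ifit2, Ifit3 and Isg15. At the length of the shortest list, 5165 peaks, 4 of the 11 genes separated the groups by end peaks (Nfkbie, Relb, Irf2 and Il18). By other peaks 1 of the 17 did (Nfkbiz). How many other genes did so at that length was not counted. At that length the 8 libraries had end peaks at 12 to 17 of the 43 genes and at 16.1% to 21.6% of the others. The count was 12 in both 1-allele libraries and in wild-type replicate 1, and 16 in wild-type replicate 2. With full lists and a 2.5 kb end window, Relb and Irf2 no longer separated the groups, while Nfkbie and Il18 did. For Relb the wider window took in a region 1727 bp beyond its opposite end, at an end of Clasrp, called in 1-allele replicate 2. Without NICD replicate 2 the count of other peaks was 26.

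The third comparison, 2-allele against NICD, concerns the floxing of both alleles. End peaks separated the groups for 3 genes, Cxcl5, Socs3 and Ifit3, all present in NICD, beside a background of 3.79%; the reverse count was 0 beside 0.0229%. Counted at RefSeq starts, the number was again 3. Ifit3 was kept, Socs3 no longer separated the groups, Nfkbie and Irf8 were added, and Cxcl5 had no matched start. For other peaks the counts were 6 (Cxcl1, Cxcl10, Stat3, Socs2, Ifit2 and Ifit3) beside 8.4%, and 0 beside 0.0412%. With lists of 14373 peaks each, the end count was 0 and the count of other peaks 1 (Tnf). At 5165 peaks these were 1 (Il18) and 0, and Nfkb2 had other peaks in the 2-allele pair and not in the NICD pair. At both lengths, no gene that separated the groups in the full lists was kept. In the full lists, the end and other counts without NICD replicate 2 were 6 and 15. Without 2-allele replicate 1 they were 6 and 11.

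The fourth comparison, 2-allele against 1-allele, sets the allele numbers against each other. For 6 genes each 2-allele library and no 1-allele library had an end peak (Relb, Nfkbie, Il18, Irf2, Irf3 and Irf9), beside 12% of other genes. The reverse count was 0 beside 0.0412%. The 2-allele end peaks of Nfkbie lay at its far end, near Slc35b2. A peak of 1-allele replicate 2 lay just beyond the end window of Irf2. Counted at RefSeq starts, Irf9, Irf3, Irf2 and Il18 were kept, Nfkbie was not, and Socs3 was added. Relb had no matched start. Other peaks gave 7 genes (Nfkb1, Nfkbib, Nfkbiz, Il1a, Ccl28, Icam1 and Isg15) beside 10.9%, and 0 beside 0.261%. The 2-allele peaks of Nfkbib lay at ends of Mrps12 and Sars2, and those of Il1a at the end of Ckap2l. For Ccl28 and Il1a the 2-allele replicates had different regions, so no single region was called in both. With 5165 peaks each, 2 (Relb and Irf2) and 1 (Nfkbiz) were left. With full lists and a 2.5 kb end window, neither Relb nor Irf2 separated the groups, while Irf9, Nfkbie, Irf3 and Il18 did. For Relb the window again took in the region at the end of Clasrp. Without 1-allele replicate 2 the count of other peaks was 14, and without 2-allele replicate 2 it was 11. The comparisons share libraries, so their lists of genes are not independent. As shares of the 43 genes, the end counts in the order of the comparisons were 4.65%, 25.6%, 6.98% and 14%, to be set against the backgrounds given beside each.

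A test across all 4 H3K27ac groups was possible for the covered length, that is, the bp under peaks in the gene body plus 20 kb per Mb covered by the whole list. Of 41 genes with a peak in at least 1 H3K27ac library, 0 passed an adjusted p of 0.05 in the exact permutation test over 105 groupings of the libraries with Benjamini-Hochberg adjustment over all 16167 genes tested, as did 0 of the others. The smallest p the design allows is 0.00952. Without adjustment, 8 genes (19.5%) were under 0.05, beside 23.2% of the others. With covered length not scaled to the list, 23 of the 41 were under 0.05, beside 8072 of all 16167 genes. Il1a, Il18, Cxcl1, Nfkbiz, Irf3 and Isg15 had that smallest p, with an adjusted p of 0.146, and Nfkb1 and Stat3 had exact permutation p of 0.019 and 0.0476.

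Il18 covered 53.1 and 43.9 bp per Mb in wild type, 142.5 and 83.0 in NICD, 0 and 0 in 1-allele and 78.2 and 56.5 in 2-allele glands. NICD and wild type did not overlap, and the 2-allele values lay between them. Cxcl1 covered 84.3 and 45.7, 117.6 and 125.4, 134.3 and 205.1, and 94.3 and 105.2 bp per Mb in the same order. Since the 1-allele lists cover the least in all, the same Cxcl1 start region was a larger share of them. Irf3 covered 195.9 and 158.2, 229.2 and 262.5, 0 and 83.6, and 333.5 and 297.5 bp per Mb, highest in 2-allele glands. Isg15 covered 109.6 and 117.1, 118.8 and 128.9, 0 and 0, and 194.0 and 130.6 bp per Mb, and Il1a 80.2 and 97.7, 48.8 and 54.3, 0 and 0, and 47.0 and 48.6. Every region of Irf3 and the regions of Il1a lie at ends of neighbouring genes, as do the end region of Il18 and most regions of Isg15.

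H3K4me3, measured in 1 library per group and therefore without a test, reached the most genes in the NICD library with the lists as deposited. End peaks were called for 22 genes in wild type (others 47.4%), 38 in NICD (63.5%) and 8 in the floxed library (19.5%), and other peaks for 22 (42.6%), 40 (65.9%) and 8 (19.2%). The end peak of 16 genes was called in the NICD and not the wild-type library, beside 16.2% of other genes, and of 0 genes in the reverse, beside 0.0732%. The 16 were Tnf, Il1a, Il6, Il33, Cxcl2, Cxcl5, Cxcl10, Ccl28, Tnfaip2, Ptgs2, Icam1, Socs3, Irf8, Ifit1, Ifit2 and Ifit3. In wild type 4 of 5 subunits, all 5 inhibitors and all 3 STAT genes were already called, so hardly any of these could appear here. The NICD list held 39420 peaks and the wild-type list 17558. With the strongest 17558 of each, end peaks were at 22 and 27 genes (others 47.4% and 55.2%), and 5 genes were called in NICD alone, Cxcl2, Cxcl5, Icam1, Irf8 and Ifit2, beside 8.38% of others. With the strongest 5165 of each the order turned, with end peaks at 15 genes in wild type, 8 in NICD and 8 in the floxed library. The share of other genes at that length was not counted for H3K4me3. The NICD library also had H3K4me3 at 6 of 20 leukocyte and 6 of 10 fibroblast and muscle markers, against 1 and 0 in wild type, and their part in the result was not tested.

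At 8 of the 38 genes with H3K4me3 in NICD (21.1%, against 17.6% of such other genes), neither NICD H3K27ac library had an end peak: Tnf, Il1a, Il6, Il33, Cxcl2, Cxcl10, Tnfaip2 and Ifit2. In wild type this held for 0 of 22, against 10.9% of others. The H3K4me3 peak of Il6 was weak, with a summit pileup of 7 reads and a rank above 4.0% of its list, while that of Ifit2 had 40 reads and ranked above 67.1%. At Cxcl2 it had 39 reads and covered the start printed above, and at Cxcl10 it covered the start as well.

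Overlapping H3K27ac peaks of the 8 libraries were merged into 53 regions at the ends of the genes and 151 other regions. Of the end regions, 14, at 9 genes, were also within 1 kb of an end of another gene, where the mark cannot be assigned to either. Of the other regions, 44 lay at an end of another gene. The 105 distinct regions away from all gene ends were called at 24 and 24 in wild type, 89 and 44 in NICD, 2 and 3 in 1-allele and 17 and 12 in 2-allele libraries. They are set beside 22970 such regions around other genes. The NICD pair held 19 regions that the wild-type pair lacked (18.1%, against 14.3%), 32 that the 1-allele pair lacked (30.5%, against 26.5%) and 22 that the 2-allele pair lacked (21%, against 18%), while the 2-allele pair held 6 that the 1-allele pair lacked (5.71%, against 4.65%). The 2-allele pair also held 1 region that the NICD pair lacked (0.952%, against 0.0871%).

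Other genes of the same pathways were counted from lists of names. Of 27 NF-kB signalling genes (receptors, adaptors and kinases), end peaks were called for 24 and 24 in wild type, 25 and 25 in NICD, 12 and 18 in 1-allele and 24 and 23 in 2-allele libraries, in each case a higher share than in the background given above for that library. None separated NICD from wild type in either direction. In NICD and not 1-allele glands there were 6, Traf2, Myd88, Map3k14, Tradd, Tnfrsf1a and Nfkbid, beside the 18.8% of genes outside the 43, and Map3k14, the kinase of the non-canonical arm that ends in Relb, was the 1 gene called in NICD and not 2-allele glands, beside 3.79%. Of 38 matched genes of interferon and cytokine signalling, 4 were called in NICD and not wild-type glands, the kinase gene Tyk2 and the interferon-induced genes Oasl2, Gbp3 and Ifi44, beside 3.83%. There were 12 in NICD and not 1-allele glands beside 18.8%, and beside 3.79% there were 6 in NICD and not 2-allele glands (Irf5, Oasl2, Gbp3, Usp18, Ifi44 and Cish). No gene of either list was called in both libraries of the other group and in neither NICD library, or in both 1-allele and neither 2-allele library.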

How the data were processed

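Gland epithelium of mouse stomach was fixed, sonicated and immunoprecipitated, and the peak lists of 8 H3K27ac and 3 H3K4me3 libraries were analysed; the H3K4me3 antibody was not given in the sources used here. Bowtie2 and MACS2 with GRCm38 (mm10) are named per the submitters' processing notes. Per the file headers, 9 lists were called library by library with MACS 2.0.10.20131216, without a control, with duplicates removed, a q threshold of 0.05, a local background of 10 kb and the human genome size. Their deposited columns are the pileup signal at the summit, −log10 p and q, and the fold enrichment. For both 2-allele lists the authors deposited positions alone, and the caller was not given in the sources used here. No column of per-sample values was left unmapped.

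Peaks of each library were joined to genes by position (Python 3.11.15, numpy 2.4.6, pandas 2.3.3, matplotlib 3.10.9; overlap of at least 1 bp). A peak within 1 kb of either gene end was an end peak, and any other in the gene body plus 20 kb an other peak. The rank of a peak is the percentage of its list with a lower score, or a later place in the file for the 2-allele lists. Overlapping H3K27ac peaks were merged into regions. A gene separated 2 groups when each library of one, and no library of the other, had the peak. Covered length was tested by an exact permutation test with Benjamini-Hochberg adjustment over all genes, tested on simulated data. The genes named are those of the list that separate groups, that were called in all 8 H3K27ac libraries, or that lead the test, and the others stand by role. The genes and the other lists were chosen with earlier results of these data known. RefSeq sequences and starts are of GRCm38.p6. No starts were matched for Relb, Nfkbiz, Cxcl16, Nfkb1, Ccl2, Cxcl5 and Socs2. Mx1, Mx2 and Gif of the other lists were not matched to the gene table. Alternatives were other windows, overlaps, list lengths and thresholds, 1 end per gene, and leaving out each library; counting at RefSeq starts and H3K4me3 lists of equal length were chosen after seeing the data.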

Additional observations from a re-analysis of the deposited data

How the results depend on the processing

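With lists cut to the shortest of each comparison, counts of genes called in NICD alone fell to 0 (end) and 1 (other) against wild type, 4 and 1 against 1-allele, and 0 and 1 against 2-allele glands, and 2-allele against 1-allele gave 2 and 1; 1 gene then had other peaks in 2-allele and not NICD glands. At 5165 peaks the same counts were 0 and 0, 4 and 1, 1 and 0, and 2 and 1, with 1 gene (Nfkbib) at the ends in wild type and not NICD and 1 (Nfkb2) with other peaks in 2-allele and not NICD glands, so in both cases the larger count passed to the other group. The genes with an end peak were then 12 and 16 in wild-type, 17 and 16 in NICD and 14 and 13 in 2-allele libraries. For H3K4me3 they were 15 in wild type and 8 in NICD, the reverse of the order in the full lists. The share of other genes was not counted for H3K4me3 at that length. Genes with other peaks were 6 and 8 in wild-type, 9 and 9 in NICD and 9 and 8 in 2-allele libraries. For H3K4me3 they were 8 in wild type and 10 in NICD. Fewer peaks per list is how these settings are built. For the separating counts of this section, the share of other genes was not counted. With −log10 q of at least 3, 3 genes had other peaks in NICD and not wild type; the 2-allele lists hold no q. With at least 1/2 of the peak required in the window, 5 genes separated NICD from 2-allele glands at the ends. With 50 kb flanks, other peaks reached 14 and 19 genes in 1-allele libraries, 28 in 2-allele replicate 2 and 16 in the floxed H3K4me3 library. The cause of these last changes was not tested. Leaving out each library gave 2 to 4 (end) and 7 to 12 (other) genes for NICD against wild type, 12 to 14 and 18 to 26 against 1-allele, 3 to 6 and 6 to 15 against 2-allele, and 6 to 9 and 7 to 14 for 2-allele against 1-allele glands, with 0 to 1 at the ends in 2-allele and not NICD glands. The reverse counts were otherwise 0.

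The test of covered length gave 0 adjusted calls in the alternatives run, but with so few groupings and so many genes the smallest p can hardly pass the adjustment, and the 0 says nothing about stability. Unadjusted, 8072 genes were under 0.05 with unscaled length, 3490 with 5 kb flanks, 3745 with a peak in at least 3 libraries, and 0 without the 2-allele group, where the smallest exact permutation p is 0.0667. With the replicate number as a block there were 0 adjusted and 2000 unadjusted calls, and deviations of same-numbered libraries correlated by 0.01 to 0.07, so the numbers do not pair the libraries. Over the other windows, overlaps, lengths and thresholds, 109 values stayed near those reported, and the 39 that moved are among those given above. Values were compared as counts, and a similar count can hold other genes. For other peaks in NICD and not wild type, 50 kb flanks kept 3 of the 6 genes and 5 kb flanks 2. For other peaks in NICD and not 2-allele glands, 50 kb flanks kept 1 of 6, Ifit3. Lists of 5165 to 41405 peaks limit every count, since a gene without a peak may lie under the threshold of its library.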
